A study of Mus musculus with 3 samples.

Results

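The platelet-derived growth factor (PDGF) and KIT receptor systems were described here through 7 genes picked by name from the 9781 usable gene rows of a mouse droplet single cell RNA-seq table. The receptors were *Pdgfra*, *Pdgfrl* and *Kit*, and the ligands were *Pdgfa*, *Pdgfc*, *Kitl* and *Csf1*. All 7 genes had a row. The table pooled 3 libraries of tissue labelled Normal, 1 from the E18.5 male urogenital sinus (the embryonic tissue that gives rise to the prostate), 1 from P14 prostate and 1 from P35 prostate. The labels name no genotype, treatment or number of pooled animals for these libraries, and the methods give a mix of C57BL/6 and 129S1/SvImJ backgrounds for the mice of the whole study.

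Barcodes in the table ended in 1, 2 or 3, and nothing in the labels says which ending belongs to which tissue. The endings are therefore called barcode sets 1, 2 and 3, and no set was given an age. Captured transcripts were counted by unique molecular identifiers (UMIs). Set 1 held 766 cells (19357 UMIs in the median cell), set 2 held 5350 cells (1738 UMIs) and set 3 held 8457 cells (1788 UMIs), of which 97 with fewer than 200 detected genes were left out. Some 14 barcodes occurred in more than 1 set. With a single library behind each set there was no replicate error, no test and no p-value, and the 95% intervals given are limited to counting error.

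Cells were sorted into 8 classes from fixed marker genes, with the 7 genes kept out of the clustering. Epithelium-like cells numbered 114, 1404 and 2684 in sets 1, 2 and 3, fibroblast-like cells 381, 1657 and 2633, and smooth muscle-like cells 70, 1603 and 1944. Endothelium-like cells numbered 38, 96 and 198, glia-like cells 21, 189 and 237, leukocyte-like cells 38, 25 and 177, pericyte-like cells 11, 29 and 129, and neuron-like cells 32, 15 and 19. Each class carried its own markers, but in the smaller classes the markers of other cell types were often as abundant. In the leukocyte-like cells of set 2 the 14 epithelial markers summed to 3452 CPM beside 3440 CPM for the 11 leukocyte markers, and the smooth muscle markers to 7477 CPM, whereas the leukocyte markers summed to 12740 and 9918 CPM in sets 1 and 3. CPM here are the UMIs of a gene, or of a list of genes, in a class, scaled to a class total of 1000000 UMIs. The smooth muscle-like cells of set 1 had a lower sum of the 9 smooth muscle markers, 5604 CPM against 28265 and 27199, and a sum of the 7 striated muscle markers of 841 CPM against 56.9 and 21.0. The 3 erythroid markers summed to 5847 CPM in those cells of set 1, above the smooth muscle sum, against 57.6 and 8.41 CPM in sets 2 and 3. Pericyte-like cells had smooth muscle sums of 6203, 7565 and 12463 CPM beside 2820, 2289 and 3681 CPM for the 7 pericyte markers. Glia-like cells had fibroblast sums of 1724, 6186 and 5323 CPM beside 6300, 4543 and 5362 CPM for the 8 glial markers. Endothelium-like cells had 4838, 4884 and 4748 CPM of the 12 endothelial markers, smooth muscle sums of 595, 4657 and 1526 CPM and epithelial sums of 223, 1369 and 2400 CPM. The part of these other markers in the levels of the 7 genes was not tested. Set 1 also stood apart as a whole. Clustered without integration of the sets, 485 cells, all of them from set 1, formed a cluster that took no class name, and only 1 cell of set 1 remained fibroblast-like, so the class values of set 1 rest on the integration.

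PDGF receptors are tyrosine kinases on mesenchymal cells. PDGF-A and PDGF-C chains bind the alpha receptor, and in many developing organs the ligands come from epithelium, nerve or muscle while the receptor sits on neighbouring fibroblasts. Pdgfrl is a secreted protein related to the ligand-binding part of the receptor, without a kinase. KIT and the CSF1 receptor belong to the same receptor family. KIT ligand (stem cell factor) sustains mast cells, melanocytes, germ cells and the interstitial pacemaker cells of smooth muscle, and CSF1 sustains macrophages. The PDGF beta receptor, the CSF1 receptor and the PDGF-B and PDGF-D ligands were not analysed here.

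On GRCm38.p6 (the assembly behind mm10), RefSeq places *Pdgfra*, *Kit* and *Pdgfa* on chromosome 5 (75151322 to 75198206, 75574987 to 75656722 and 138976014 to 139000792), *Pdgfc* and *Csf1* on chromosome 3 (81036416 to 81214040 and 107741048 to 107760469), *Pdgfrl* on chromosome 8 (40926233 to 40990782) and *Kitl* on chromosome 10 (100015615 to 100100416). *Pdgfra* and *Kit*, 2 receptor genes of 1 family, lie next to each other in the same part of chromosome 5. Promoter windows of RefSeq were found for 6 of the 7 genes, and those of *Kit*, *Csf1* and *Pdgfc* ended right before the annotated gene. These 3 are shown because the levels of the genes differed in pattern, with *Kit* highest in endothelium-like cells, *Pdgfc* in smooth muscle-like cells and *Csf1* in a different stromal class in each set. The 150 bases before the start are given 5′ to 3′ on the strand of the gene, with the GC box letters GGGCGG in capitals. *Kit* is read from the plus strand at chr5:75574837-75574986, *Csf1* from the minus strand at chr3:107760470-107760619, and *Pdgfc* from the plus strand at chr3:81036266-81036415.
Kit: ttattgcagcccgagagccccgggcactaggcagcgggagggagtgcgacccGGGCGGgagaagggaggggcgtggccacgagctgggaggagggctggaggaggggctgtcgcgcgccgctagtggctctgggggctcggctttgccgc
Csf1: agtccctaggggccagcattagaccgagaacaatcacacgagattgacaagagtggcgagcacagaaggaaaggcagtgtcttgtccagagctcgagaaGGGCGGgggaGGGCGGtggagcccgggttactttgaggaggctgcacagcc
Pdgfc: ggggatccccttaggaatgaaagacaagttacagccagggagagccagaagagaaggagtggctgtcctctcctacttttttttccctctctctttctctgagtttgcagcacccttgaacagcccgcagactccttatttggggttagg
GGGCGG (searched on both strands) occurred 1 time before *Kit*, 98 to 93 bases upstream, 2 times before *Csf1*, starting 51 and 41 bases upstream, and 0 times before *Pdgfc*. Of 32851 windows of the same length in the promoter table, 28.6% held it. TATAAA, on either strand, was in 0 of these 3 windows and in 7.57% of all, and CCGGAA in 0 of these 3 and in 9.23% of all. Among the windows not printed, that of *Kitl* held TATAAA 25 to 20 bases upstream, 1 CCGGAA and 3 GGGCGG. The *Kit* window was 73.3% G or C, that of *Csf1* 59.3% and that of *Pdgfc* 50.7%, with a median of 54% over all windows. These are descriptions of letters, and no binding was measured.

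*Pdgfra*, the alpha receptor, was a gene of the fibroblast-like cells in every set. Fibroblast-like cells had 684, 454 and 542 of its UMIs in sets 1, 2 and 3, which gave 94.3 CPM (95% Poisson interval 87.3 to 102), 178 CPM (162 to 195) and 144 CPM (132 to 156). Epithelium-like cells had 4.25 CPM (23 UMIs), 8.58 CPM (69 UMIs) and 1.14 CPM (18 UMIs). The intervals of the 2 classes were apart in each set. Smooth muscle-like cells differed from set to set, with 79.0 CPM (65.7 to 94.2) in set 1, 43.5 CPM (36.4 to 51.6) in set 2 and 10.4 CPM (7.30 to 14.3) in set 3. In set 1 this interval overlapped that of the fibroblast-like cells, and in sets 2 and 3 it lay below. The 11 fibroblast markers summed to 5967, 5480 and 3521 CPM in the smooth muscle-like cells, and their part in this signal was not tested. Endothelium-like cells of set 1 had 0 UMIs (3 UMIs would be 2.85 CPM, and the exact Poisson upper limit is 3.50 CPM), and their rates were 14.01 and 3.62 CPM in the other sets.

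A UMI of *Pdgfra* was found in 64.3% of the fibroblast-like cells of set 1 (245 of 381, exact binomial interval 59.3 to 69.1), in 21.4% of those of set 2 (19.4 to 23.4) and in 17.4% of those of set 3 (16.0 to 18.9). The median cell of this class had 15623 UMIs in set 1 against 1245 and 1325 in sets 2 and 3. After thinning to 900 UMIs per cell, which leaves out shallower cells (3, 200 and 380 of this class), the shares were 7.67%, 14% and 11.5%. The higher share of set 1 was thus not kept at equal depth. Epithelium-like cells, in which the receptor is not expected, had a UMI in 7.89%, 4.27% and 0.633% of cells at medians of 3452 to 40496 UMIs, and in 0% (0 of 113, exact upper bound 3.21%), 0.717% and 0.0756% after thinning.

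*Pdgfrl*, the receptor-like gene, was highest in the same class. Its rate in fibroblast-like cells was 122.9 CPM (892 UMIs, 115 to 131) in set 1, 50.9 CPM (130 UMIs, 42.5 to 60.5) in set 2 and 106 CPM (400 UMIs, 95.9 to 117) in set 3. Fibroblast-like cells held 92.7%, 69.1% and 86.4% of all its UMIs, while holding 35.4%, 16.0% and 13.8% of the UMIs of all genes. The next level belonged to pericyte-like cells in sets 1 and 2, with 69.0 CPM (19 UMIs in 11 cells, 41.5 to 108) and 43.6 CPM (2 UMIs in 29 cells, 5.28 to 158), the latter overlapping the fibroblast-like cells. In set 3 glia-like cells (17.4 CPM, 5 UMIs) and pericyte-like cells (15.0 CPM, 3 UMIs in 129 cells) came next. The sum of the 11 fibroblast markers in the pericyte-like cells was 5811, 7587 and 2833 CPM, and the part of this in the *Pdgfrl* signal was not tested. Epithelium-like cells had between 0.95 and 1.48 CPM.

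*Kit*, the stem cell factor receptor, was the scarcest of the 7 genes, with 131, 59 and 101 UMIs over all kept cells of sets 1, 2 and 3. Endothelium-like cells had the highest rate in each set, at 31.3 CPM (33 UMIs, 21.6 to 44.0), 74.7 CPM (32 UMIs, 51.1 to 106) and 38.7 CPM (32 UMIs, 26.4 to 54.6). Glia-like cells followed in set 1 with 26.0 CPM (15 UMIs in 8 of 21 cells), and leukocyte-like cells in set 3 with 26.6 CPM (11 UMIs in 9 of 177 cells). Both of these intervals overlapped that of the endothelium-like cells of their set. Epithelium-like, fibroblast-like and smooth muscle-like cells stayed between 0.373 and 5.51 CPM. The 5.51 CPM were those of the fibroblast-like cells of set 1. Of their 40 UMIs, 39 lay in cluster 1 of that class (10.6 CPM, 26 of 228 cells).

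A *Kit* UMI was seen in 36.8%, 21.9% and 11.6% of the endothelium-like cells (14 of 38, 21 of 96 and 23 of 198), against 7.09%, 0.422% and 0.494% of the fibroblast-like cells, whose medians are given above; the endothelium-like medians were 20338, 3262 and 3090 UMIs. At 900 UMIs per cell the shares were 0% (exact upper bound 9.49%), 6.74% and 3.33% of endothelium-like cells, next to 0.265%, 0.137% and 0.311% among fibroblast-like cells, so that the share of set 1 could not be read at this depth. Of the 2 mast cell markers with a row, *Gata2*, a transcription factor gene that endothelium also uses, had 45, 33 and 21 UMIs in the endothelium-like cells (42.7, 77.1 and 25.4 CPM). The other, *Hdc* (histidine decarboxylase), had 2, 1 and 2 UMIs in the endothelium-like cells and 9, 0 and 1 UMIs in the leukocyte-like cells of sets 1, 2 and 3. Fibroblast-like cells had 109, 18 and 2 UMIs of *Hdc* and 157, 67.8 and 82.2 CPM of *Gata2*. The 3 erythroid markers summed to 4190 CPM in the endothelium-like cells of set 2 against 126 and 7.25 CPM in sets 1 and 3, and their part in the *Kit* signal was not tested. The melanocyte markers with a row (3) summed to at most 1.21 CPM in this class. In the glia-like cells of set 1, which came second in *Kit*, they summed to 19.1 CPM (11 UMIs), with 6 UMIs of the pigment enzyme gene *Tyrp1*, and in those of sets 2 and 3 to 7.53 and 6.97 CPM. The part of these markers in the *Kit* signal was not tested.

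**Figure D1:**
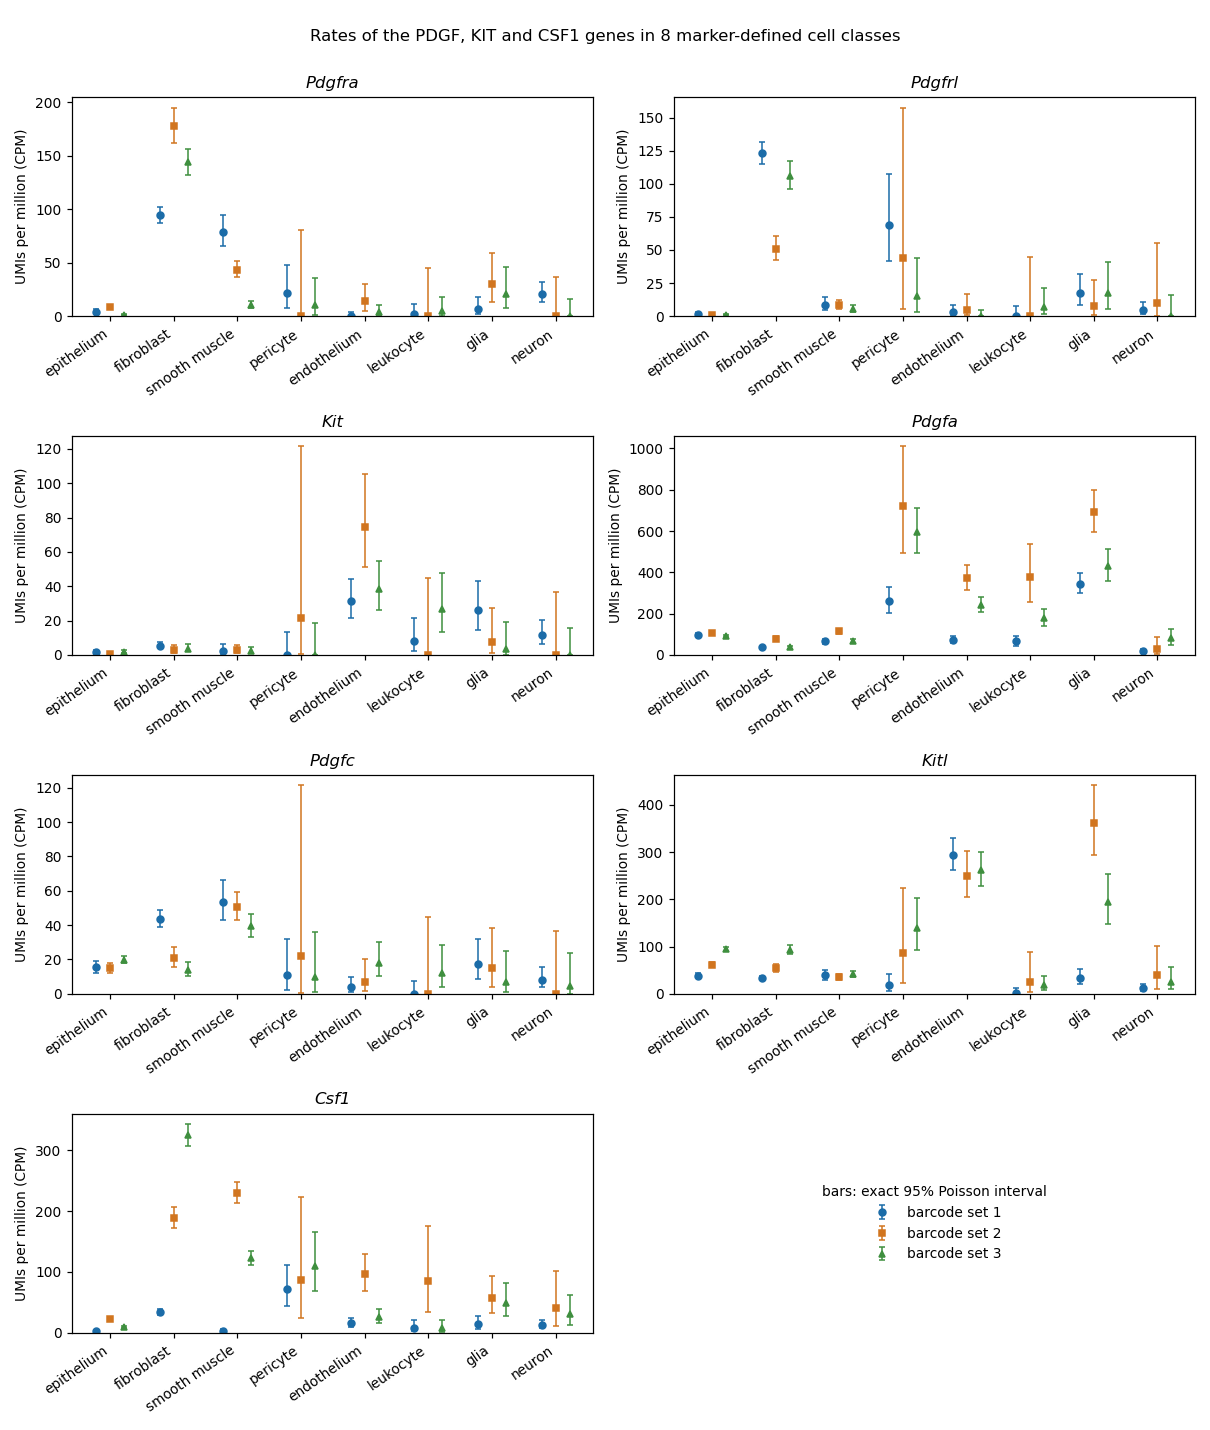
Rates of the 7 genes (vertical axes, UMIs per 1000000, starting at 0 and scaled for each gene) in the 8 named classes, with barcode sets 1, 2 and 3 as circles, squares and triangles and exact 95% Poisson intervals as bars. *Pdgfra* and *Pdgfrl* stand up in the fibroblast-like class, *Kit* in the endothelium-like class, *Pdgfa* in the glia-like and pericyte-like classes and *Pdgfc* in the smooth muscle-like class.

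*Pdgfa*, the ligand with the most UMIs of the PDGF genes here, was found in every class and was highest in small classes rather than in the epithelium. Glia-like cells had 345 CPM (199 UMIs, 299 to 397) in set 1, 693 CPM (184 UMIs, 597 to 801) in set 2 and 429 CPM (356 to 512, in 72 of 237 cells) in set 3. Pericyte-like cells had 261 CPM (72 UMIs in 11 cells), 719 CPM (33 UMIs in 29 cells) and 593 CPM (119 UMIs in 129 cells). The intervals of these 2 classes overlapped in each set. Endothelium-like cells had 371 and 243 CPM in sets 2 and 3, and 72.2 CPM in set 1. In the leukocyte-like cells the rates were 66.7, 378 and 177 CPM. The value of set 2 came from 31 UMIs in the 25 cells noted above for their epithelial and smooth muscle markers. The epithelial tight junction gene *Cldn4* had 561 CPM in these cells. Epithelium-like and smooth muscle-like cells of set 2 had 107 and 114 CPM of *Pdgfa*. The part of these other markers in the 378 CPM was not tested.

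Between the large classes, the epithelium-like rate of *Pdgfa* exceeded the fibroblast-like rate in all 3 sets, at 96.4 against 39.8 CPM, 107 against 78.7 CPM and 92.9 against 36.3 CPM. The log2 ratios were 1.28 (exact interval 1.07 to 1.49), 0.44 (0.22 to 0.67) and 1.36 (1.10 to 1.62), each below a 4-fold difference. A *Pdgfa* UMI was present in 80.7%, 37.6% and 33.9% of the epithelium-like cells, and in 7.08%, 11.3% and 9.79% after thinning to 900 UMIs. The thinned shares were 3.17%, 6.31% and 3.42% for the fibroblast-like class and 47.6%, 44.8% and 27.5% in glia-like cells. The glia-like shares of sets 2 and 3 cover 125 of 189 and 109 of 237 cells, since 64 and 128 were too shallow to thin.

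*Pdgfc*, the second ligand of the alpha receptor, had its highest rate among the named classes in smooth muscle-like cells, although these held 13.5%, 41.1% and 24.8% of its UMIs. Smooth muscle-like cells had 53.5 CPM (84 UMIs, 42.7 to 66.2), 50.4 CPM (154 UMIs, 42.7 to 59.0) and 39.5 CPM (141 UMIs, 33.3 to 46.6) in sets 1, 2 and 3. Fibroblast-like cells had 43.5 CPM (38.9 to 48.6) in set 1, where the intervals overlapped, and 20.8 and 14.05 CPM in sets 2 and 3, where they did not. Epithelium-like cells had 15.5, 14.9 and 19.8 CPM, with 55.1% of the UMIs of set 3. The unnamed cluster 7 had 74.2, 27.1 and 26.7 CPM and the unnamed cluster 10 had 64.2, 55.9 and 15.5 CPM (16, 21 and 2 UMIs), above the smooth muscle-like rate in set 1 for both and in set 2 for cluster 10. Leukocyte-like cells had 0 UMIs in sets 1 and 2, where 3 UMIs would be 6.26 and 36.6 CPM and the exact Poisson upper limits are 7.69 and 45.0 CPM.

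*Kitl*, the KIT ligand, was highest in endothelium-like cells in sets 1 and 3, with 294 CPM (310 UMIs, 263 to 329) and 262 CPM (217 UMIs, 228 to 299). In set 2 the glia-like cells had 362 CPM (96 UMIs, 293 to 442) and the endothelium-like cells 250 CPM (107 UMIs, 205 to 302), with overlapping intervals. Glia-like cells had 195 CPM (147 to 254) in set 3 and 32.9 CPM (19.8 to 51.5) in set 1. The fibroblast markers in the glia-like cells summed to 6186 and 5323 CPM in sets 2 and 3 and to 1724 CPM in set 1, and their part in the *Kitl* level was not tested. Epithelium-like and fibroblast-like cells had nearly equal rates within each set, 38.4 and 33.1 CPM in set 1, 61.2 and 54.1 CPM in set 2 and 94.6 and 92.8 CPM in set 3. The intervals of their log2 ratios all included 0, from -0.06 to 0.49, from -0.10 to 0.46 and from -0.14 to 0.20. Leukocyte-like cells had 2.09, 24.4 and 19.4 CPM from 1, 2 and 8 UMIs. *Kitl* UMIs were found in 71.1%, 46.9% and 58.6% of endothelium-like cells, or in 16.2%, 20.2% and 25.0% at 900 UMIs per cell, with 2.65%, 4.59% and 7.63% in epithelium-like cells at that depth.

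*Csf1*, the macrophage growth factor, was highest in a stromal class in each set. Fibroblast-like cells had 33.8 CPM (245 UMIs, 29.7 to 38.3), 189 CPM (483 UMIs, 173 to 207) and 325 CPM (1226 UMIs, 307 to 344) in sets 1, 2 and 3. Smooth muscle-like cells had 2.55 CPM (4 UMIs) in set 1, 231 CPM (705 UMIs, 214 to 248) in set 2 and 122.5 CPM (437 UMIs, 111 to 135) in set 3. The order of the 2 classes therefore changed, with the muscle class above in set 2 and below in sets 1 and 3, and with intervals apart each time. Pericyte-like cells had 72.6 CPM (20 UMIs, 44.3 to 112) in set 1, the highest rate of that set, and 87.2 and 110 CPM in the others. Epithelium-like cells had 2.22, 21.9 and 9.31 CPM. Endothelium-like cells had 15.2, 95.8 and 25.4 CPM and glia-like cells 13.9, 56.5 and 48.8 CPM. Leukocyte-like cells had 8.34, 85.4 and 7.26 CPM and neuron-like cells 12.8, 39.7 and 29.9 CPM. In set 1 the rates of these last classes, from endothelium-like to neuron-like, were all above that of the smooth muscle-like cells. At 900 UMIs per cell a *Csf1* UMI was left in 1.59%, 13.1% and 19.1% of fibroblast-like cells and in 0% (exact upper bound 3.21%), 1.86% and 0.605% of epithelium-like cells.

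**Figure D2:**
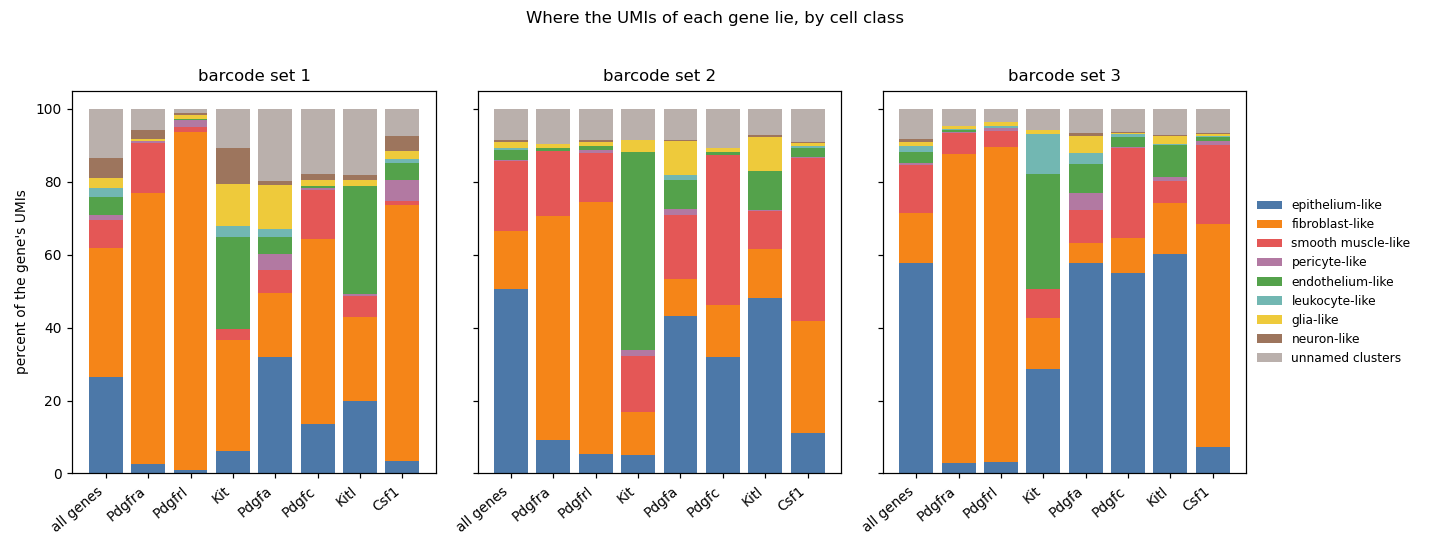
Percent of the UMIs of each gene (vertical axis) that lay in each named class or in the unnamed clusters, with the UMIs of all genes as the first bar, for barcode sets 1, 2 and 3. Fibroblast-like cells take 61.3% to 84.7% of the *Pdgfra* bars and 13.8% to 35.4% of the bars of all genes.

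The split of all UMIs of a gene among classes depends on how many cells of a class were captured as well as on their levels. Fibroblast-like cells held 74.5%, 61.3% and 84.7% of the *Pdgfra* UMIs of sets 1, 2 and 3. Endothelium-like cells held 25.2%, 54.2% and 31.7% of the *Kit* UMIs but 5.13%, 2.69% and 3.02% of the UMIs of all genes. In set 1 the many fibroblast-like cells held more *Kit* UMIs (40) than the endothelium-like cells (33), at a lower rate. For *Kitl* the low rate of the many epithelium-like cells outweighed the high rate of the few endothelium-like cells in sets 2 and 3. Epithelium-like cells held 19.9%, 48.0% and 60.2% of its UMIs and endothelium-like cells 29.6%, 10.4% and 8.74%. Likewise epithelium-like cells held 31.9%, 43.2% and 57.7% of the *Pdgfa* UMIs, close to their 26.4%, 50.5% and 57.7% of all UMIs, and glia-like cells held 12.2%, 9.23% and 4.84% of them. *Csf1* moved from 70.2% in fibroblast-like and 1.15% in smooth muscle-like cells in set 1 to 30.6% and 44.7% in set 2 and 61.1% and 21.8% in set 3.

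Epithelium-like and fibroblast-like cells were then compared over all rows by 1 rule, a difference of at least 4-fold with an interval that excluded 0 on the log2 scale and at least 20 UMIs in both classes together. *Pdgfra*, *Pdgfrl* and *Csf1* were lower in epithelium-like cells by this rule in all 3 sets, and 0 of the 7 genes were higher. That is 3 of 7 genes in set 1, where 14.8% of 7117 rows were lower and 8.08% higher, 3 of 6 in set 2 (9.5% and 6.28% of 6319 rows; *Kit* had too few UMIs) and 3 of 7 in set 3 (11.8% and 8.5% of 6932 rows). The median log2 ratio over all rows so compared was -0.21, -0.03 and 0.19, and over the 7 genes (6 in set 2) it was -1.90, -1.79 and -1.01. The log2 ratios of *Pdgfra* were -4.47 (-5.14 to -3.87), -4.37 (-4.76 to -4.01) and -6.98 (-7.74 to -6.30). Those of *Pdgfrl* were -6.38 (-7.59 to -5.39), -5.36 (-6.45 to -4.43) and -6.80 (-7.65 to -6.06). *Csf1* had -3.93 (-4.90 to -3.10), -3.11 (-3.37 to -2.86) and -5.13 (-5.38 to -4.88). Without the 5% of cells with the highest doublet scores *Pdgfra* moved out of these intervals to -6.09, -5.01 and -7.93, *Pdgfrl* to -7.69 in set 1 and *Csf1* to -5.75 in set 3. Without integration, in sets 2 and 3, *Pdgfra* was at -3.72 and -6.09, *Pdgfrl* at -4.32 and -6.06 and *Csf1* at -2.49 and -4.52, and with at least 500 genes per cell *Csf1* was at -2.94 in set 1. The epithelium-like cells held 214, 1567 and 930 CPM of the fibroblast markers and 149, 2016 and 694 CPM of the smooth muscle markers in sets 1, 2 and 3, highest in set 2, as were *Pdgfra* and *Csf1* in this class, and the part of these markers in the ratios was not tested.

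*Kit* and *Pdgfc* were not called in this comparison. *Kit* had log2 ratios of -1.90, -2.88 (with too few UMIs for the rule) and -1.01, resting on 8, 3 and 29 UMIs in epithelium-like cells. *Pdgfc* was lower in epithelium-like cells in set 1 at -1.49 (-1.85 to -1.14), had an interval that included 0 in set 2 at -0.48 (-0.95 to 0.02) and was higher in set 3 at 0.50 (0.07 to 0.95). At 900 UMIs per cell its ratio in set 1 changed sign, to 0.48.

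Smooth muscle-like cells differed from fibroblast-like cells in 1.24% to 5.57% of rows per direction and set, and *Pdgfrl*, with *Pdgfra* in sets 2 and 3, was among those that were lower. *Pdgfrl* was at least 4-fold lower in all 3 sets, with log2 ratios of -3.89, -2.64 and -4.24. *Pdgfra* had -0.26 (-0.54 to 0.02) in set 1 and was 4-fold lower in sets 2 and 3 at -2.03 (-2.32 to -1.75) and -3.79 (-4.31 to -3.31). *Csf1* was 4-fold lower in set 1 only, at -3.73 (-5.62 to -2.35), on the 4 UMIs named above, and had 0.29 (0.12 to 0.46) and -1.41 (-1.57 to -1.25) in sets 2 and 3. In all, 2 of 7, 2 of 6 (*Kit* had too few UMIs) and 2 of 7 genes were lower in sets 1, 2 and 3, where 1.98%, 2.27% and 5.57% of rows were, and 0 were higher, where 1.24%, 2.43% and 3.17% of rows were. *Pdgfc* had log2 ratios of 0.30 (-0.07 to 0.65), 1.28 (0.82 to 1.76) and 1.49 (1.03 to 1.98), under 4-fold.

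Endothelium-like cells were above fibroblast-like cells in *Kit* in all sets, and in *Kitl* and *Pdgfa* by the 4-fold rule in part of the sets. *Kit* was at least 4-fold higher in all 3 sets. Its log2 ratio was 2.51 (1.80 to 3.21) in set 1, 4.77 (3.56 to 6.19) in set 2 and 3.38 (2.43 to 4.40) in set 3. *Kitl* was higher by the rule in sets 1 and 2 at 3.15 (2.91 to 3.40) and 2.21 (1.83 to 2.58), and had 1.5 (1.25 to 1.75) in set 3. *Pdgfa* was higher by the rule in sets 2 and 3 at 2.24 and 2.74, and had 0.86 (0.47 to 1.23) in set 1. So 2, 3 and 2 of the 7 genes were higher, where 4.89%, 4.23% and 7.53% of rows were. *Pdgfra* and *Pdgfrl* were lower in all 3 sets (with 0 to 6 UMIs each in endothelium-like cells, and counts under 3 set to 3), with *Pdgfc* in set 1 and *Csf1* in set 3 beside them, which made 3, 2 and 3 genes where 9.06%, 3.07% and 5.48% of rows were lower.

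**Figure D3:**
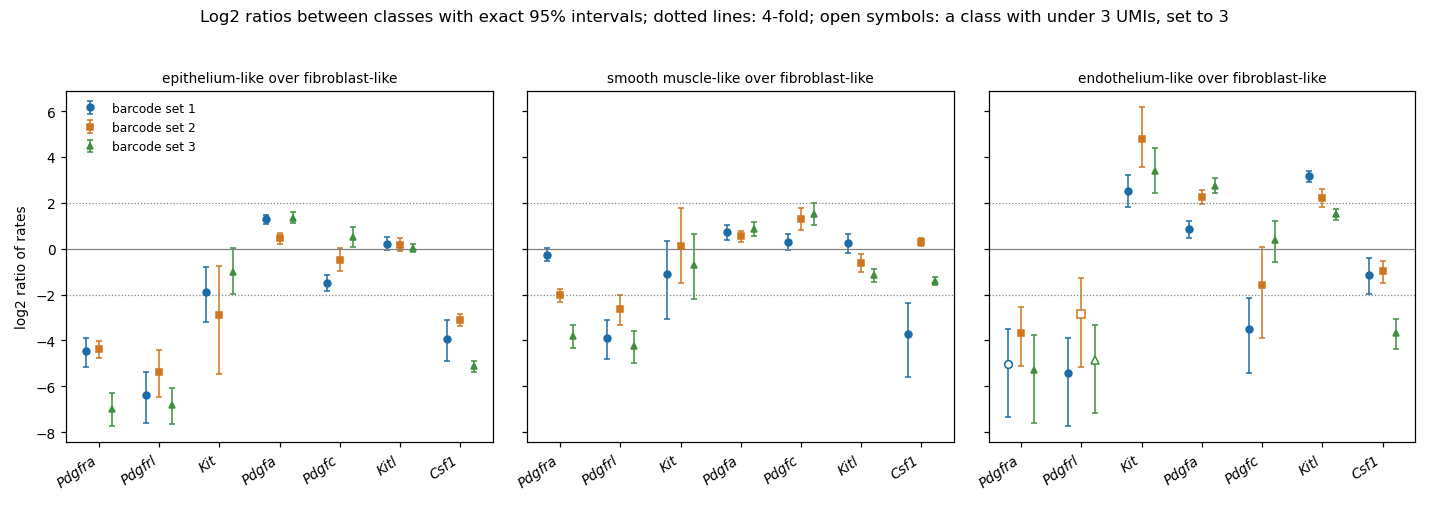
Log2 ratios of rates of the 7 genes in epithelium-like, smooth muscle-like and endothelium-like cells over fibroblast-like cells (vertical axis), with exact 95% intervals, for barcode sets 1, 2 and 3; dotted lines mark 4-fold and open symbols a class with fewer than 3 UMIs, set to 3. *Pdgfra* and *Pdgfrl* lie below the lower line in the epithelium-like and endothelium-like panels in all sets, and *Kit* lies above the upper line in the endothelium-like panel.

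Within the fibroblast-like class, 2 clusters differed in *Csf1* and, in set 1, also in *Pdgfra*, *Pdgfrl*, *Kit*, *Pdgfa* and *Pdgfc*. Cluster 1 (with *Lamc3*, *Fgf21* and *Col15a1* among its 10 leading genes) and cluster 2 (with *Dpt* and *Lum*) had 12.2 and 55.8 CPM of *Csf1* in set 1, 163 and 212 CPM in set 2 and 226 and 445 CPM in set 3. The intervals of the 2 clusters were apart in each set. For *Pdgfrl* cluster 1 had 53.6 CPM and cluster 2 had 194 CPM in set 1, and for *Pdgfra* the order was turned, with 131 and 56.1 CPM. In set 2 the clusters overlapped in both genes, with 53.6 and 48.6 CPM of *Pdgfrl* and 183 and 173 CPM of *Pdgfra*. In set 3 *Pdgfrl* was 90.8 (78.3 to 105) and 125 (108 to 143) CPM, apart by a small margin, and *Pdgfra* was 151 and 135 CPM with overlap. In set 1 cluster 1 had 10.6 CPM of *Kit* (7.55 to 14.5) and cluster 2 had 0.279 CPM (1 UMI, 0.007 to 1.56). For *Pdgfa* the 2 clusters of set 1 had 26.4 and 53.6 CPM, and for *Pdgfc* 52.2 and 34.6 CPM, with intervals apart. In sets 2 and 3 the intervals of *Kit*, *Pdgfa* and *Pdgfc* overlapped. *Pdgfrl* was itself among the 10 leading genes of cluster 2, although it had been kept out of the clustering.

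Within the epithelium-like class *Pdgfa* was uneven. Cluster 4, with the tetraspanin gene *Tspan1* and the tight junction gene *Cldn3* among its leading genes, had 70.9, 42.4 and 41.6 CPM in sets 1, 2 and 3. Cluster 5, led by *Lamb3*, a laminin chain of the basement membrane, and by *Sfn*, had 212 (185 to 243), 152 (139 to 166) and 164 (151 to 177) CPM. Cluster 3, led by *Lgals7* and *Serpinb5*, matched cluster 5 with 168 and 162 CPM in sets 2 and 3, and had 2 cells in set 1. The *Pdgfra* left in epithelium-like cells was highest in cluster 5 in sets 1 and 2, with 12.3 (6.33 to 21.4) and 13.2 (9.60 to 17.6) CPM against 2.49 and 5.20 CPM in cluster 4. The value of set 1 came from 12 UMIs in 3 of 27 cells. *Csf1* in set 2 was also highest there, at 33.3 against 15.0 CPM.

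**Figure D4:**
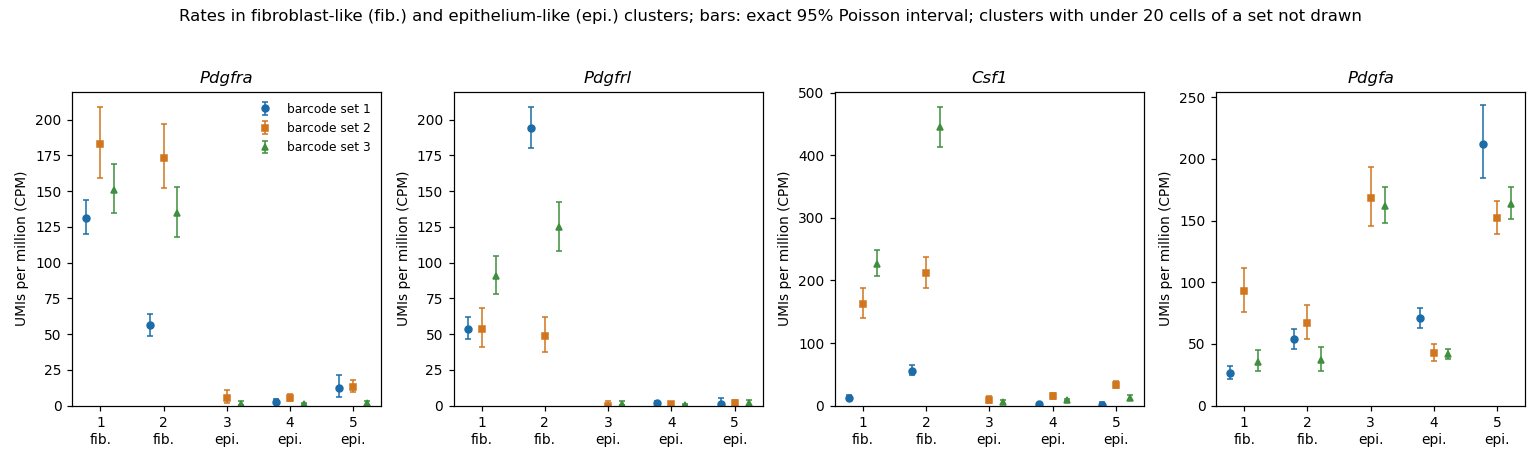
Rates of *Pdgfra*, *Pdgfrl*, *Csf1* and *Pdgfa* (vertical axes, UMIs per 1000000) in clusters 1 and 2 of the fibroblast-like (fib.) and 3, 4 and 5 of the epithelium-like (epi.) class, by barcode set, with exact 95% Poisson intervals. *Csf1* is higher in cluster 2 than in cluster 1 in every set, and *Pdgfa* is higher in cluster 5 than in cluster 4 in every set.

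Among the unnamed clusters, cluster 7 had 260, 146 and 121 CPM of *Pdgfa* and 26.3, 156 and 96.1 CPM of *Csf1*. Its leading genes include the muscle genes *Myod1*, *Myf5*, *Ttn* and *Actc1*, but the striated muscle markers summed to 1015 CPM in its 18 cells of set 1 and to 9.999 and 5.34 CPM in sets 2 and 3, where the epithelial markers summed to 4031 and 4795 CPM and the smooth muscle markers to 10955 and 9978 CPM. The part of these markers in the levels was not tested. Cluster 10, led by mitotic genes, had *Pdgfra* at 120, 71.8 and 85.1 CPM. Cluster 12, which carried 13 of the 14 epithelial markers but was left unnamed because a leukocyte marker was among its leading genes, had *Kitl* at 93.1, 64.4 and 67.5 CPM and 0, 3 and 1 *Pdgfra* UMIs, where 3 UMIs in set 1 would be 1.76 CPM and the exact Poisson upper limit is 2.16 CPM.

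Receptor and ligand were also looked for in the same cells. Of the fibroblast-like cells with a *Pdgfra* UMI, 34.7%, 11.02% and 4.59% also had a *Pdgfa* UMI, next to 28.7%, 10.1% and 4.97% of the fibroblast-like cells without *Pdgfra*. Taking all kept cells of set 3, 8.07% of those with *Pdgfra* had *Pdgfa* against 20.2% of the others, in set 2 the shares were 22.3% and 23.98%, and in set 1 42.3% and 50.6%. In smooth muscle-like cells the order was the other way, with *Pdgfa* in 70.5%, 22.6% and 18.8% of the cells with *Pdgfra* and in 50%, 16.8% and 10.8% of the others. *Pdgfc* was found in 63.6%, 15.1% and 18.8% of the smooth muscle-like cells with *Pdgfra* and in 34.6%, 8.35% and 6.80% of the others. The smooth muscle-like cells with *Pdgfra* were deeper in each set (23299, 2608 and 2346 UMIs in the median cell against 11163, 1554 and 1606). Over all kept cells the *Pdgfc* shares were 50.2% against 33.8% in set 1, 7.36% against 6.46% in set 2 and 3.67% against 6.37% in set 3. *Kit* and *Kitl* were found together in 39, 21 and 31 of all kept cells of sets 1, 2 and 3. Endothelium-like cells were the largest part, beside 9 fibroblast-like and 5 glia-like cells in set 1 and 9 epithelium-like cells in set 3. Among the 14, 21 and 23 endothelium-like cells with a *Kit* UMI, 13, 15 and 18 also had *Kitl*. That is 92.9%, 71.4% and 78.3%, against 58.3%, 40% and 56% of the endothelium-like cells without *Kit*. The endothelium-like cells with *Kit* were deeper, with medians of 55960, 5995 and 5288 UMIs against 9418, 2983 and 2867. In the glia-like cells of set 1, *Kitl* was in 62.5% of the 8 cells with *Kit* and in 23.1% of the others. Those with *Kit* were again deeper (34300 against 17083 UMIs in the median cell), and the part of depth in these differences was not tested.

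Of 37 further genes of these pathways fixed as a list, 35 had a row. Between epithelium-like and fibroblast-like cells, 1 of 29 genes with enough UMIs was higher and 3 lower by the 4-fold rule in set 1, 2 and 3 of 28 in set 2, and 2 and 5 of 30 in set 3. The shares of rows past the rule over the whole table are given above. *Plat*, tissue plasminogen activator, which can cleave latent PDGF-C, was the only one past the rule in the same direction in all 3 sets. It was lower in epithelium-like cells, with 35.3 against 310 CPM, 50.6 against 734 CPM and 77.1 against 605 CPM, and log2 ratios of -3.14, -3.86 and -2.97. The 3 genes of ligand processing and co-receptors with enough UMIs had median log2 ratios of -1.52, -2.45 and -2.97, with 1, 2 and 2 of them lower by the rule. Of the 20 kinases, adaptors and small GTPases that relay the signal, the 18 with enough UMIs had median log2 ratios of -0.03, -0.19 and -0.04, and the attenuators (phosphatases and feedback inhibitors; 8, 7 and 8 of 9 compared) had -0.24, -0.19 and -0.05. Between smooth muscle-like and fibroblast-like cells 0 pathway genes were higher and 0 of 27, 1 of 29 and 2 of 27 lower, and between endothelium-like and fibroblast-like cells 4 of 29, 3 of 28 and 3 of 28 were higher and 3, 1 and 3 lower.

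Rows with a pattern like that of each gene were ranked by Pearson's r of log2(CPM + 5) over 21 combinations of class and set with at least 20 cells, among 7175 rows with at least 100 UMIs. The points share libraries and depth, so r is a description only. *Dnm1* (0.940), *Prrx2* (0.929) and *Pappa2* (0.923) were most like *Pdgfra*, and *Svep1* (0.901), *Mmp23* (0.890) and *Cpxm1* (0.863) most like *Pdgfrl*. *Gimap6* (0.874), *Git2* (0.826) and *Egfl7* (0.819) were most like *Kit*, and *Jade1* (0.856), *Ppfibp1* (0.834) and *Tm4sf1* (0.823) most like *Kitl*. *Gab1* (0.842), *Fam76a* (0.766) and *Tox2* (0.737) were among the most alike for *Pdgfa*, *Dkk3* (0.835) and *Nfix* (0.778) for *Pdgfc*, and *Col4a4* (0.876), *Cry2* (0.857) and *Pttg1ip* (0.845) for *Csf1*. Among the 7 genes themselves, *Pdgfra* and *Pdgfrl* had the highest r (0.674), and *Pdgfra* and *Pdgfa* the lowest (-0.379).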

How the data were processed

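Single cells from 1 urogenital sinus and 2 prostate libraries were measured by droplet RNA-seq. The submitters' processing notes name Cell Ranger 3.1.0 and mm10. The values deposited by the authors are natural log values, ln(1 + 10000 × UMI / cell total), scaled within each cell, in 1 table of all 3 libraries. Whole UMIs were recovered from them (100% of 11120281 values within 0.05 of a whole number), and the design had foreseen this unit. The analysed rows hold 49.4% to 52.7% of the UMIs of a set. One incomplete row and 2 rows with a shared name were left out.

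Cells were clustered with Seurat 5.3.0 in R 4.3.3 (resolution 0.5, 20 dimensions, 2000 features, cell cycle scores regressed), giving 14 clusters of which 3 took no class name. Doublet scores from scanpy 1.11.5 marked 3, 0 and 0 cells of sets 1, 2 and 3, too few for the caller to have worked. These 3 cells were kept, and an alternative left out the 5% with the highest scores. UMIs were summed per class and set. Rates carry exact 95% Poisson intervals, shares exact binomial intervals and log2 ratios exact binomial intervals. A count under 3 UMIs was set to 3 in ratios. The scripts were tested on simulated data. The genes named are the 7 genes, pathway genes past 4-fold in 1 direction in all sets, up to 3 rows most like each gene (1 is not reported here), and fixed markers. The members and lists were chosen with earlier results of these data known. Genes that lead a cluster, and *Cldn4* and *Hdc* beside a result, were named after their values were seen.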

Additional observations from a re-analysis of the deposited data

Results flagged for a closer look

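The log2 ratio of *Pdgfc* between epithelium-like and fibroblast-like cells was -1.49 in barcode set 1 and 0.50 in set 3, with each interval on its own side of 0. At 900 UMIs per cell the ratio of set 1 was 0.48, on the side of set 3, and at resolution 1.0 that of set 3 was 0.035. The difference between the sets was not tested, since each set is 1 library.

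The 97 cells of set 3 left out for few detected genes held 7 UMIs of *Pdgfra*, 9 of *Pdgfa* and 5 of *Kitl*.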

How the results depend on the processing

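Of 289 values recomputed under the alternatives, 235 stayed within their counting interval (or, for counts, within 1.5 times), 53 moved beyond it, and 1 ratio whose interval excluded 0 changed sign (*Pdgfc* in set 1). The *Kitl* ratios of sets 2 and 3, whose intervals included 0, also took either sign. The alternatives that counted the mitotic cluster or cluster 12 in a class were added after seeing the data. With a 2-fold rule 1 gene was higher in epithelium-like cells in sets 1 and 3, and 5 were lower in set 1. The share of all rows past 2-fold was not taken, so these counts cannot be read against the whole table. The log2 ratios that follow set epithelium-like against fibroblast-like cells. At 900 UMIs per cell *Pdgfc* in set 1 turned to 0.48, *Pdgfa* was 0.83 in set 2 and 1.66 in set 3, and *Kitl* -0.16 in set 2. With at least 500 genes per cell *Pdgfa* was 1.58 and 0.15 and *Pdgfc* -1.13 and -1.02 in sets 1 and 2, *Csf1* was -2.94, -3.47 and -5.40 in sets 1, 2 and 3, and *Kitl* 0.26 in set 3. With each cell weighing the same *Pdgfa* was 1.81, 0.71 and 1.62, and *Kitl* 0.55 in set 1 and -0.15 in set 3. Without the 5% of cells with the highest doublet scores *Pdgfra* was -6.09, -5.01 and -7.93, *Pdgfrl* -7.69 in set 1 and *Csf1* -5.75 in set 3. Without integration *Pdgfra* was -3.72 and -6.09, *Pdgfrl* -4.32 and -6.06 and *Csf1* -2.49 and -4.52 in sets 2 and 3, and 4 of the 7 genes kept their highest class in set 1. At resolution 1.0 *Pdgfc* was -0.99 in set 2 and 0.035 in set 3. With cluster 12 counted as epithelium-like *Kitl* was 0.64 in set 1. The cause was not tested for any of these.

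Thinning to 900 UMIs left these shares of cells with a UMI in the class with the highest rate, in sets 1, 2 and 3: *Pdgfra* 7.67%, 14% and 11.5%, *Pdgfrl* 7.41%, 4.26% and 9.54%, *Pdgfc* 1.45%, 3.93% and 3.73%, *Kit* 0%, 6.74% and 3.33%, *Kitl* 16.2%, 21.6% and 25.0%, *Csf1* 0%, 17.5% and 19.1%, and *Pdgfa* 47.6% in set 1. For *Csf1* these shares are of pericyte-like (11 cells), smooth muscle-like and fibroblast-like cells in sets 1, 2 and 3, so they form no series. For *Kitl* the share of set 2 is of glia-like cells and the others are of endothelium-like cells. Another 15 values could not be given, 7 because 1 fibroblast-like cell of set 1 was left without integration and 8 because a class held under 3 UMIs. No paired analysis was possible because there is a single library per group. *Kit* rests on 59 to 131 UMIs per set.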
